A study of Mus musculus with 4 samples.

Results

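Myelin lipid synthesis enzymes were followed as 10 genes (Ugt8a, Fa2h, Gal3st1, Cers2, Elovl1, Elovl5, Elovl7, Scd1, Scd2 and Aspa), a set taken from their known roles and found on the arrays by gene symbol. All non-control probes that carry 1 of these symbols were taken, which gave 19 of 56605 probes and 10 of 26033 named genes with a probe. Of the 19 probes, 15 were well above background on all 4 arrays and 4 on none, and each gene had at least 1 of the 15. The transgenic animals are MSA Tg mice in the submitters' words, where MSA stands for multiple system atrophy, a disease in which oligodendrocytes fill with protein inclusions, and all mice, wild type included, were 24 weeks old. All 4 samples share the strain background C57BL/6, 129 and C3H. The groups were transgenic brainstem/cerebellum, wild-type brainstem/cerebellum, transgenic spinal cord and wild-type spinal cord, each measured on 1 Agilent array in 1 colour. Sample titles begin with PLP, but the labels name neither the transgene nor the promoter that drives it, and whether RNA was pooled from several animals is not stated there.

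With 1 array per group there are no replicates and no test was run, and the values describe these 4 arrays alone. Between 59.2% and 64% of the spots on an array were well above background, and none was saturated. The other 3 arrays share a slide that does not hold the array of wild-type spinal cord, so in that tissue the effects of slide and genotype cannot be told apart. The genotype comparison in brainstem/cerebellum and the tissue comparison within transgenic mice each lie within 1 slide. Levels are the log2 signal minus the 75th percentile of the array, and they are compared between arrays for 1 probe, never between genes. Repeated spots of bright probes within an array gave an SD of 0.09 to 0.10 for the difference between a pair of spots. Variation from mouse to mouse or from one hybridisation to the next is not part of that SD. The samples are pieces of tissue, so fewer cells of a type and less RNA per cell cannot be told apart.

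Myelin is unusually rich in galactosylceramide and its sulfated form, sulfatide, which oligodendrocytes in the central nervous system and Schwann cells in nerves build from ceramides with very long, often hydroxylated acyl chains. Ugt8a adds the galactose to ceramide, Gal3st1 adds the sulfate, and Fa2h hydroxylates the acyl chain. Cers2 joins very long acyl chains to the sphingoid base, the Elovl enzymes lengthen fatty acids, Scd1 and Scd2 put the double bond into saturated ones, and Aspa releases acetate from N-acetylaspartate, which can feed lipid synthesis.

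The probes are 60 bases long, and where a gene had several, the one with the highest mean signal stands for it. Sequences are shown for the genes whose probes can be set against each other, because the reading of Cers2 and Elovl5 turns on the probe. The files give no exon or UTR for a probe. The Cers2 probe that stands for the gene lies at chr3:95127163-95127222 in mm9, the build of the deposited probe coordinates, 1696 bases into the transcript by the position in its file entry. Over its whole length it has a stop codon in each of the forward reading frames, while the other Cers2 probe, at position 644 (chr3:95125520-95125579), leaves 1 frame open. The pairs are written 5′ to 3′, with the first 30 bases only of the probes that stand for the genes, and with no part marked.
Cers2, position 1696, first 30 bases: agaaagctgagctacttttaactttctctt
Cers2, position 644: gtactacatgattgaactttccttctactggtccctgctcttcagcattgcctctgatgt
Elovl5, position 2659, first 30 bases: ctcaatacaaaaattataacatttgatagt
Elovl5, position 596: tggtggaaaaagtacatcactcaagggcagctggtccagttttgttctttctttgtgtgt
Ugt8a, position 2805, first 30 bases: atggagacaagtcacaactttcataaattc
Ugt8a, position 1334: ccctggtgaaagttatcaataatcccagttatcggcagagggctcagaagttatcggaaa
The Ugt8a probe at position 1334 covers 4065 bases of the genome (chr3:125570466-125574530) and the Elovl5 probe at position 596 covers 260 (chr9:77827724-77827983), so each crosses a gap between its genomic blocks.

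In the genes of galactolipid synthesis itself, the spinal cord stood above brainstem/cerebellum in both genotypes, and the genotypes lay close together. Ugt8a (ceramide galactosyltransferase, chr3:125568995-125569054) read 1.28 in wild-type and 1.19 in transgenic brainstem/cerebellum, and 2.35 in wild-type and 2.67 in transgenic spinal cord. Both spinal cord arrays were above both brainstem/cerebellum arrays, an order found for 22.1% of 16083 genes. The genotype difference, transgenic minus wild type, was -0.09 in brainstem/cerebellum and 0.32 in spinal cord, and the tissue difference was 1.07 (2.11-fold) in wild-type and 1.48 (2.79-fold) in transgenic mice. The probe at position 1334 gave 0.00 and 0.54 for the genotype and 1.04 and 1.58 for the tissue, so both Ugt8a probes have the same order of tissues.

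Gal3st1 (the sulfotransferase that makes sulfatide, chr11:3899197-3899256) read 0.28 in wild-type and 0.41 in transgenic brainstem/cerebellum, and 1.55 and 1.91 in wild-type and transgenic spinal cord. It was higher in the transgenic than in the wild-type sample in both tissues, by 0.13 (-0.04 with scaling on the array's median) and 0.36, and higher in spinal cord than in brainstem/cerebellum by 1.26 in wild-type and 1.5 in transgenic mice. Fa2h (fatty acid 2-hydroxylase, chr8:113869119-113869178) read 2.18, 2.02, 3.21 and 3.18 in the same order of arrays. Its spinal cord arrays lay 0.03 apart, the genotype difference in brainstem/cerebellum was -0.16, and the tissue differences were 1.03 and 1.16. With scaling on the spike-in probes, which are control probes for added RNA, the spinal cord genotype differences of Ugt8a and Gal3st1 turn to -0.14 and -0.09, and that of Elovl1, given next, to -0.16.

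**Figure D1:**
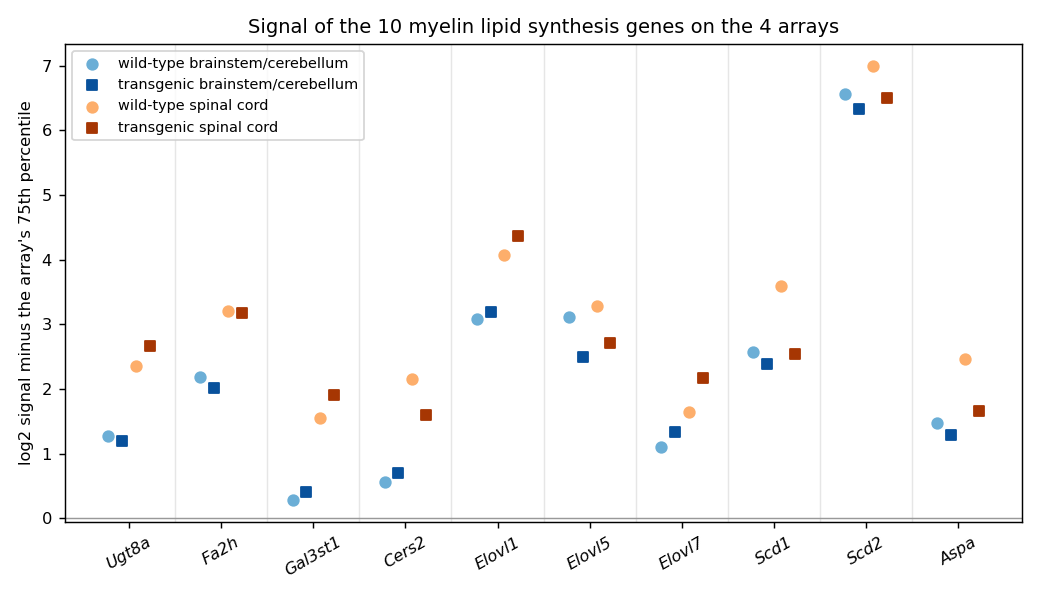
The plot shows the log2 signal minus the 75th percentile of the array (vertical axis) for the 10 genes (horizontal axis), 1 point per array, with the symbol marking the genotype and the colour the tissue. Both spinal cord points lie above both brainstem/cerebellum points for 7 genes, and the points of Elovl5, Scd1 and Scd2 interleave. Heights of different genes come from different probes and are not comparable.

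Among the enzymes of very long acyl chains, Elovl1 and Elovl7 were higher in spinal cord and, with the 75th percentile, slightly higher in the transgenic samples, and Cers2 depended on the probe. Elovl1 (the elongase of very long saturated and monounsaturated chains, chr4:118105163-118105222) read 3.08 in wild-type and 3.19 in transgenic brainstem/cerebellum, and 4.07 in wild-type and 4.36 in transgenic spinal cord. The genotype difference was 0.11 and 0.30, and the tissue difference was 0.99 in wild-type and 1.17 in transgenic mice. Its other detected probe gave 0.26 and 0.31 for the genotype and 1.01 and 1.07 for the tissue, so the pair of probes differed by at most 0.15 in any comparison. Elovl7 (an elongase of long saturated chains, chr13:109073556-109073615) read 1.11, 1.33, 1.65 and 2.17 in wild-type and transgenic brainstem/cerebellum and wild-type and transgenic spinal cord. The transgenic spinal cord array was the highest, the genotype difference was 0.22 and 0.52, and the tissue difference was 0.54 and 0.84.

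Cers2 (ceramide synthase for very long chains) read 0.56 in wild-type and 0.70 in transgenic brainstem/cerebellum, and 2.15 in wild-type and 1.59 in transgenic spinal cord with the probe that stands for it. The wild-type spinal cord array was the highest and the transgenic one lower by 0.55, while in brainstem/cerebellum the transgenic array was higher by 0.15, which becomes -0.02 with scaling on the array's median. The other probe read -1.63, -1.62, -1.13 and -1.16 in that order of arrays, with genotype differences of 0.01 and -0.03. A genotype difference of Cers2 in spinal cord was thus seen with 1 of 2 probes. The higher value in spinal cord was seen with both, at 1.59 and 0.89 with the first and 0.51 and 0.46 with the second, in wild-type and transgenic mice.

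Elovl5 (the elongase of polyunsaturated chains, chr9:77832205-77832264) read 3.12 in wild-type and 2.49 in transgenic brainstem/cerebellum, and 3.29 in wild-type and 2.71 in transgenic spinal cord. Elovl5 was lower on the transgenic array by 0.63 in brainstem/cerebellum and by 0.58 in spinal cord, and the tissue differences were small (0.18 and 0.22). It is the member with the largest genotype difference in brainstem/cerebellum, where both arrays share a slide. The probe at position 596, annotated to a predicted transcript variant, was dim, at -4.77, -4.62, -4.78 and -4.58, and its genotype differences were 0.15 and 0.20. The lower value in the transgenic samples was therefore seen with the bright probe and not with the dim one. The mean of these 2 probes gave -0.24 in brainstem/cerebellum and -0.19 in spinal cord.

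Scd1, Scd2 and Aspa were lower in the transgenic samples of both tissues, and the difference was larger in spinal cord. Scd1 (stearoyl-CoA desaturase, chr19:44469387-44469446) read 2.57 in wild-type and 2.39 in transgenic brainstem/cerebellum, and 3.59 in wild-type and 2.54 in transgenic spinal cord. The wild-type spinal cord array stood alone, and the other 3 lay between 2.39 and 2.57. The genotype difference was -0.17 in brainstem/cerebellum and -1.05 in spinal cord, where the wild-type value was 2.07-fold the transgenic one. Scd2, the desaturase known as the main form in brain (chr19:44381024-44381083), read 6.57, 6.33, 7.00 and 6.50 in wild-type and transgenic brainstem/cerebellum and wild-type and transgenic spinal cord. The wild-type spinal cord array was again the highest, and the genotype difference was -0.24 and -0.50.

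Aspa (aspartoacylase, chr11:73119051-73119110) read 1.48 in wild-type and 1.29 in transgenic brainstem/cerebellum, and 2.47 in wild-type and 1.66 in transgenic spinal cord. The genotype difference was -0.19 and -0.81, and the wild-type spinal cord array was the highest. Its other probe, at position 4110, read -1.38, -1.42, 0.12 and -0.54 in that order of arrays, with genotype differences of -0.04 and -0.67. Both Aspa probes thus put the transgenic spinal cord below the wild-type one. The probe that stands for Aspa has the sequence below, given because it carries this difference.
Aspa, position 916: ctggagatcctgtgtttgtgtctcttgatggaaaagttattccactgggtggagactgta

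The first comparison sets transgenic against wild-type brainstem/cerebellum. Of the 10 enzyme genes, 0 were at least 2-fold higher, against 2.69% of 16518 genes well above background on both arrays, and 0 were at least 2-fold lower, against 0.303%. Elovl5, at -0.63, was the 1 gene past 1.5-fold, against 2.38% of all genes lower and 6.14% higher by that much, and the other 9 lay between -0.24 and 0.22. Gal3st1, Cers2, Elovl1 and Elovl7 were above 0 (with scaling on the array's median, Elovl7 alone), and Ugt8a, Fa2h, Elovl5, Scd1, Scd2 and Aspa below it. The median of the 10 was -0.12, beside -0.07 over all genes, of which the central 95% lay between -0.58 and 1.04. With scaling on the array's median, Scd2, Aspa, Scd1 and Fa2h stand at -0.41, -0.36, -0.34 and -0.32.

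In the spinal cord comparison Scd1, Scd2, Aspa, Elovl5 and Cers2 were lower on the transgenic array, Fa2h was at -0.03, and 4 genes were higher. Scd1 was the 1 gene at least 2-fold lower, against 6.35% of 16780 genes, and 0 were at least 2-fold higher, against 8.53%. At 1.5-fold, Scd1 and Aspa were lower, against 17.7% of all genes, and 0 were higher, against 16.1%. Elovl7 (0.52), Gal3st1 (0.36), Ugt8a (0.32) and Elovl1 (0.30) were above 0, of which Elovl7 alone stays above 0 with the spike-in probes, at 0.06. The median of the 10 was -0.26 and that of all genes -0.05, with the central 95% of genes between -1.40 and 2.08. The spinal cord difference exceeded that of brainstem/cerebellum downwards by 0.87 for Scd1, 0.70 for Cers2, 0.62 for Aspa and 0.26 for Scd2, and it was above it by 0.05 to 0.40 for the other 6; with the spike-in probes it is below that of brainstem/cerebellum for all 10. These differences of differences were not tested.

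**Figure D2:**
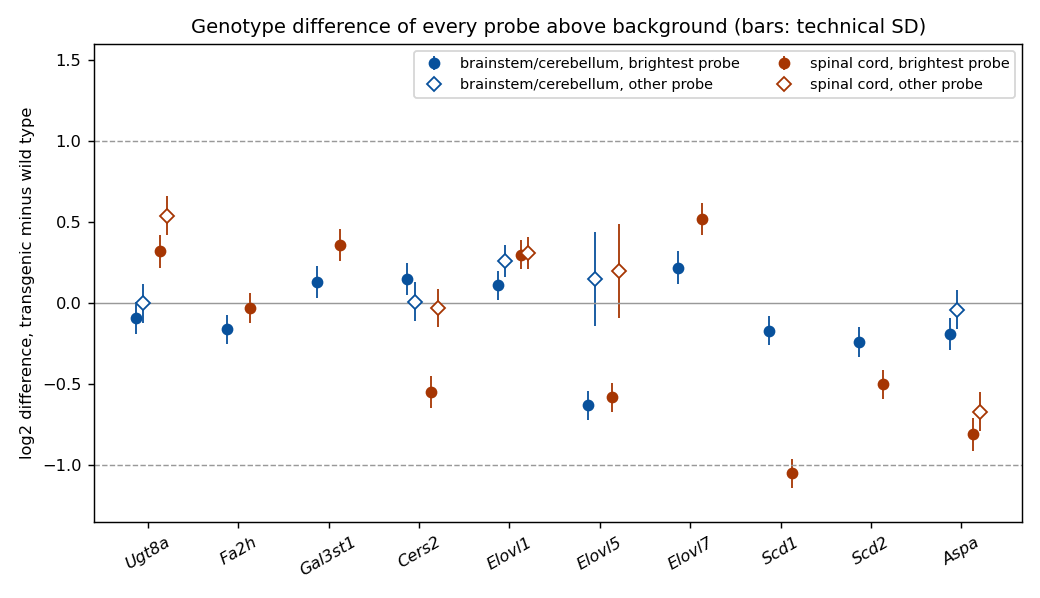
The plot shows the log2 difference, transgenic minus wild type (vertical axis), of every probe above background on all 4 arrays, for the 10 genes (horizontal axis). Filled circles are the probes that stand for the genes, open diamonds other probes, colours the tissues, bars the technical SD between spots within an array, and dashed lines a 2-fold difference. Scd1 in spinal cord, at -1.05, is the 1 point past 2-fold, and the filled and open symbols of Cers2 in spinal cord and of Elovl5 in both tissues lie apart.

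How far the spinal cord values reach depends on the scaling. With the spike-in probes the median of all genes moves from -0.05 to -0.51 in spinal cord, and Scd1 (-1.5), Aspa (-1.27), Elovl5 (-1.04) and Cers2 (-1.01) are at least 2-fold lower. With quantile normalization and with the authors' deposited values Scd1 falls just short of 2-fold, at -1.0 and -0.99, and none of the 10 genes passes it.

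**Figure D3:**
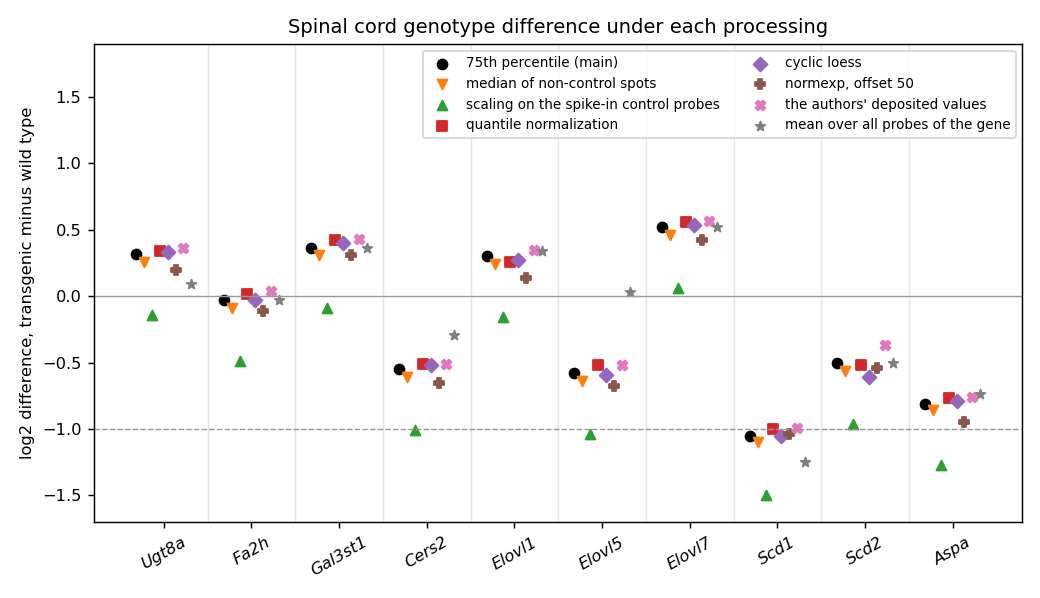
The plot shows the spinal cord genotype difference on the log2 scale (vertical axis) of each of the 10 genes (horizontal axis) under 8 ways of processing, 1 symbol each; the dashed line marks 2-fold lower. Spike-in scaling gives the lowest value for all 10 genes, with Scd1 at -1.5, and the mean of all probes, which takes in an Elovl5 probe that is not well above background, puts Elovl5 at 0.03.

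Markers of other cell types differed in both directions in spinal cord. Medians were below 0 for some lists, among them adipocyte (-1.39), skeletal muscle (-0.88) and neuron (-0.65) markers. They were above 0 for others, among them microglia and macrophage (2.15) and oligodendrocyte precursor (1.08) markers. Of 9 adipocyte markers, 9 were well above background on the wild-type spinal cord array, 6 on the transgenic one and 2 on each brainstem/cerebellum array. Over all spots, 64% were well above background on the wild-type and 60.9% on the transgenic spinal cord array. The mean level of the 9 markers was -2.39 in wild-type and -4.06 in transgenic spinal cord, and -5.86 and -6.08 in wild-type and transgenic brainstem/cerebellum. These means take in genes not well above background, so all but the first rest partly on signals near the floor. Adipoq, the gene of the fat cell hormone adiponectin, was above background in wild-type spinal cord and on none of the other arrays, as were Plin1 and Retn, and the lipid droplet gene Cidec was lower in the transgenic spinal cord by 2.55. Scd1 is also a gene of fat cells, and the part of these cells in the Scd1 and Aspa values was not tested.

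Skeletal muscle markers had a median spinal cord difference of -0.88 over 4 measured genes of 5. Schwann cell markers had a median of 0.11, with 4 of the 7 measured genes above 0 and 3 below. They went both ways, with Prx, a gene of peripheral myelin, at -1.74 and Egr2 at 2.09. Neuron markers had a median of -0.65. By their brightest probes all 8 were below 0, against 53.6% of all genes, and 3 were at least 2-fold lower, against 6.35%. Other probes above background reached 0.66 for Stmn2 and 0.26 for Syt1, and those of the other neuron genes with several probes were below 0. The part of these cell types in the enzyme values was not tested either.

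Markers of mature oligodendrocytes lay near 0 as a list. The 16 genes had a median difference of 0.05 in brainstem/cerebellum and 0.13 in spinal cord, and 1 of them, the tight junction gene Cldn11, was at least 2-fold higher in transgenic spinal cord (1.21). The sign of these medians turns with the scaling, to -0.12 in brainstem/cerebellum with the median of the array and to -0.33 in spinal cord with the spike-in probes. Oligodendrocyte precursor markers had medians of 0.12 and 1.08 over 7 genes, with 4 at least 2-fold higher in spinal cord. The spinal cord median is 0.63 with 1 gene at least 2-fold higher under spike-in scaling, and 0.36 with 2 under the mean of all probes. Microglia and macrophage markers had medians of 1.16 and 2.15 over 9 genes, with 5 and 7 at least 2-fold higher. Over all genes, 2.69% in brainstem/cerebellum and 8.53% in spinal cord were at least 2-fold higher. Medians in brainstem/cerebellum and spinal cord were 0.20 and 0.00 for 8 astrocyte genes, -0.09 and -0.40 for 5 endothelial genes and -0.10 and -0.58 for the 3 measured skin and sebaceous genes. In brainstem/cerebellum the medians were -0.24 for the neuron, 0.17 for the Schwann cell and 0.18 for the skeletal muscle markers, and the 1 adipocyte gene measured on both arrays differed by -0.31. At least 1 alternative turns the sign of the precursor, Schwann cell, endothelial and skeletal muscle medians in brainstem/cerebellum and of the Schwann cell and skin medians in spinal cord.

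The tissue comparisons ask where the enzyme genes are higher at 24 weeks. With the 75th percentile and the probe that stands for each gene, all 10 were higher in spinal cord than in brainstem/cerebellum in both genotypes. In transgenic mice Elovl5, Scd1 and Scd2 turn to -0.13, -0.20 and -0.18 with the spike-in probes, Scd2 also to -0.13 with quantile normalization and -0.08 with cyclic loess. Over all alternatives the lowest Scd1 value in transgenic mice was -0.29, with the mean of all probes. That mean takes in an Scd1 probe not well above background on any array. In wild-type mice the mean of all probes, which takes in a probe not well above background, puts Elovl5 at -0.22. Its dim probe at position 596 gave -0.01 in wild-type and 0.04 in transgenic mice. With the mean of the probes well above background on all 4 arrays, chosen after seeing the data, Elovl5 stays above 0. It is then at 0.08 in wild-type and 0.13 in transgenic mice. In wild-type mice Cers2, Gal3st1, Ugt8a, Fa2h and Scd1 were at least 2-fold higher, which is 5 of 10 against 6.51% of 16471 genes, and 0 were at least 2-fold lower, against 4.3%. Elovl1 and Aspa fell just short, at 0.99 and 0.98. In transgenic mice Gal3st1, Ugt8a, Elovl1 and Fa2h were at least 2-fold higher, which is 4 of 10 against 10.1% of 16608 genes, and 0 were at least 2-fold lower, against 6.17%. The medians of the 10 were 1.01 and 0.86, beside -0.03 and -0.02 over all genes. Both spinal cord arrays were above both brainstem/cerebellum arrays for 7 of the 10 genes, against 22.1% of 16083 genes.

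Mature oligodendrocyte markers stood at like values, with a median of 1.04 in wild-type and 0.87 in transgenic mice. Of 16 genes, 9 and 7 were at least 2-fold higher in spinal cord, against 6.51% and 10.1% of all genes. Schwann cell markers had medians of 1.43 and 1.62 over the genes measured on both arrays, and the part of nerve roots in the tissue difference was not tested. Scd1 had the widest gap between the genotypes in its tissue difference, 1.02 in wild-type against 0.15 in transgenic mice. The comparisons of genotype and of tissue share their arrays, so this gap is the same quantity as the Scd1 difference of differences above. The wild-type tissue comparison crosses slides, while the transgenic one, in which Scd1, Scd2 and Elovl5 were at 0.15, 0.18 and 0.22, does not.

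**Figure D4:**
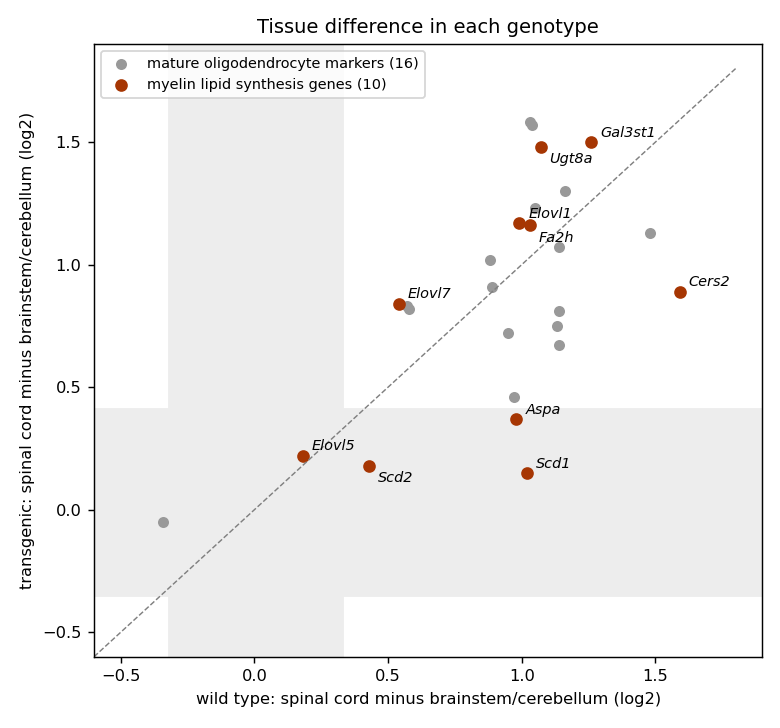
The plot sets the log2 difference of spinal cord minus brainstem/cerebellum in transgenic mice (vertical axis) against that in wild-type mice (horizontal axis), for the 10 enzyme genes and, in grey, 16 mature oligodendrocyte markers. Grey bands span the middle 50% of all genes, and the dashed line marks equal differences. With this scaling all 10 genes lie right of and above 0, with Scd1 at 1.02 and 0.15 far below the line and Ugt8a at 1.07 and 1.48 above it.

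The other genes of these pathways were described by branch, and the branches were not tested against each other. Over all genes, 2.69% were at least 2-fold higher and 0.303% lower in transgenic brainstem/cerebellum, and 8.53% and 6.35% in spinal cord. For the 22 measured genes of ceramide and galactolipid metabolism, 0 passed 2-fold in brainstem/cerebellum, with a median of -0.03 that turns above 0 with the spike-in probes and with cyclic loess. In spinal cord Sgms2 (sphingomyelin synthase) was among the genes at least 2-fold higher on the transgenic array, at 1.30, and Sptssb, a subunit of serine palmitoyltransferase, was at least 2-fold lower, as a bound, since in that tissue it was above background in the wild-type sample alone. Asah1 (acid ceramidase, 0.90) and Gltp (a glycolipid transfer protein, 0.83) were higher by less than 2-fold. The median over this branch was 0.16, and -0.30 with the spike-in probes.

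Of 27 genes of fatty acid synthesis, elongation and desaturation, 0 were at least 2-fold higher in transgenic brainstem/cerebellum. Elovl3, which was above background on the wild-type brainstem/cerebellum array alone, passed 2-fold lower as a bound there. In spinal cord 2 of the 27 were higher, against 8.53% of all genes, and 3 were lower, against 6.35%. The higher ones were Hacd4 (a dehydratase of the elongation cycle, 2.05) and Fabp7 (a fatty acid binding protein of glial precursors, 1.82). The lower ones were the acyl-CoA synthetases Acsl6 (-1.38) and Acsl3 (-1.17) and the polyunsaturated elongase Elovl2 (-1.07). Other probes above background fell short of 2-fold, at -0.89 to -0.77 for Acsl6 and -0.63 for Acsl3. The medians were -0.13 and -0.12. Elovl2, like Elovl5, works on polyunsaturated chains, but it differed by 0.03 in brainstem/cerebellum, where Elovl5 was at -0.63.

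Aspa lies in the branch of N-acetylaspartate and acetate, of which 10 other genes were followed. In brainstem/cerebellum 9 of 10 were below 0 by their brightest probes, against 61.8% of all genes. The median was -0.27, and 0 passed 2-fold. In spinal cord 10 of 10 were below 0 by the same probes, against 53.6% of all genes. Rimklb (-0.01) and Folh1 (-0.05) were close to 0, and the other Folh1 probe gave 0.06. The median was -0.60, which ranged from -1.06 to -0.53 over the alternatives. At least 2-fold lower were 2 of the 10, against 6.35% of all genes. They were Nat8l, which makes N-acetylaspartate in neurons, at -1.11, and Rimkla, which joins it to glutamate, at -1.06. The acetyl-CoA synthetases Acss2 and Acss1 stood at -0.70 and -0.68. Neuron markers were lower on the same array, as given above.

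The ether lipid branch, whose products include the plasmalogens of myelin, had 8 genes with medians of -0.12 and -0.04, the second of which turns to 0.01 with the mean of all probes. In spinal cord Tmem189, the plasmalogen desaturase, was at -1.06 with 1 probe and 0.09 with the other, and Far2 passed 2-fold lower as a bound. Agps was at -0.27 and 0.01, Gnpat at -0.19 and -0.04, and Far1 at -0.13 and -0.16 in brainstem/cerebellum and spinal cord. Of 19 lipogenic regulators, 0 passed 2-fold in brainstem/cerebellum (median -0.13), and 2 were lower in spinal cord (median -0.22), against 6.35% of all genes. Thrsp, a lipogenic protein induced by thyroid hormone, was at -1.80, and -1.56 with its other probe. Srebf2, the sterol-regulated transcription factor, was at -1.40 with 1 probe and -0.01 with the other, and Insig1, a target of that factor, at -0.99. Mlxipl was at -0.90, with other probes from -1.0 to 1.25.

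**Figure D5:**
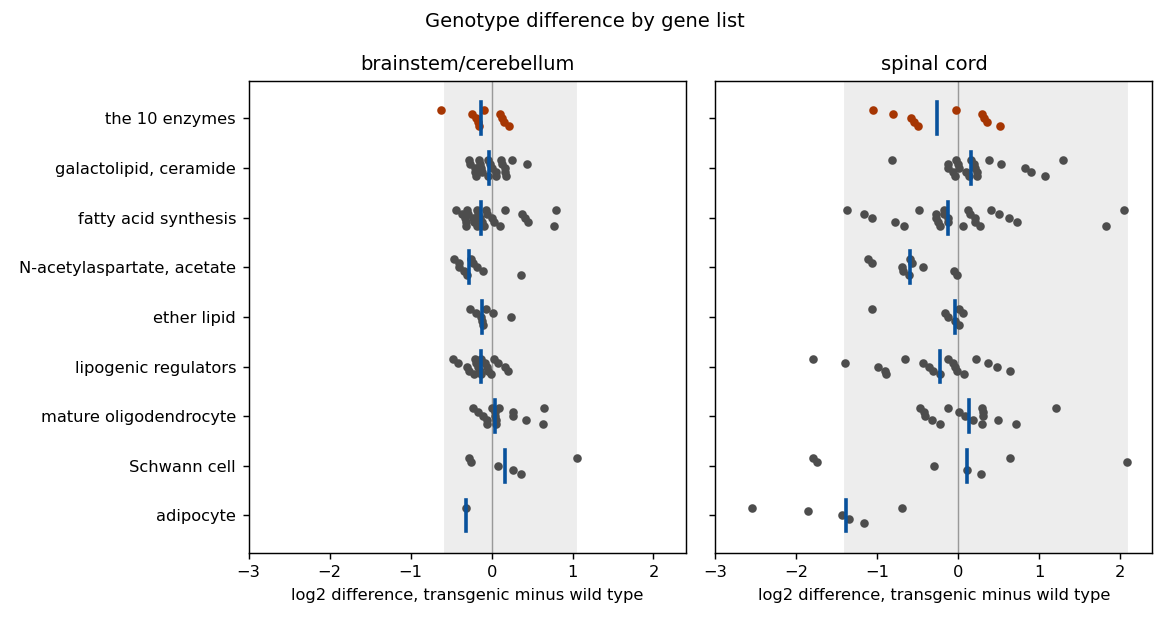
The plot shows the log2 difference, transgenic minus wild type (horizontal axis), of single genes in brainstem/cerebellum (left) and spinal cord (right), by gene list (vertical axis), with blue bars at the median and a grey band over the central 95% of all genes. The 10 enzymes have medians of -0.12 and -0.26, and the adipocyte list, with 6 genes measured on both spinal cord arrays, has a median of -1.39. Genes above background on 1 array only are not drawn.

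Profiles over the 4 arrays were set against 16083 genes well above background on all of them, by the Euclidean distance between log2 levels centred per gene. The nearest to Gal3st1 were E330037M01Rik (distance 0.02), Moxd1 (0.10) and Gfra1 (0.11). The nearest to Ugt8a were Shisa3 (0.04), Rtkn2 (0.08) and Prr5l (0.08), and to Cers2 Col22a1 (0.05), Fgf3 (0.14) and 4933433F19Rik (0.15). A distance over 4 arrays is a description only.

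Promoter windows of 250 bases before the start were in the RefSeq promoter table (GRCm38.p6) for 7 of the 10 genes, in 11 windows. They were searched on both strands for CACGTG (the E-box, in 6.02% of 32851 windows of that length), CCAAT (33.8%), GGGCGG (a GC box, 32.7%), the sterol response element of the LDL receptor gene (0.0731%) and ACAAAG (a SOX motif, 16.5%). Of the 11 windows, 0 held either of the last pair of motifs, which says only that these letters are not in them. Elovl5 and Gal3st1 are printed because the probes that stand for them had genotype differences of opposite sign in both tissues with the 75th percentile. The Gal3st1 sign turns in brainstem/cerebellum with median scaling, at -0.04, and in spinal cord with the spike-in probes. The dim Elovl5 probe gave 0.15 and 0.20, and the mean of all probes puts Elovl5 at 0.03 in spinal cord. Capitals mark the matches, which lie 161 bases before the start for the E-box and 71 and 17 for CCAAT, read on the other strand, in Elovl5 (chr9:77917115-77917364, forward strand), and 17 before the start for CCAAT, also on the other strand, in Gal3st1 (chr11:3983386-3983635, forward strand).
Elovl5: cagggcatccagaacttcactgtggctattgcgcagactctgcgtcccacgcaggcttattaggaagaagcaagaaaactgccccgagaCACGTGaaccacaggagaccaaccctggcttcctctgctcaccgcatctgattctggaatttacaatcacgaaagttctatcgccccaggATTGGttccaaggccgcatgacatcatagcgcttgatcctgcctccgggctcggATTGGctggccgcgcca
Gal3st1: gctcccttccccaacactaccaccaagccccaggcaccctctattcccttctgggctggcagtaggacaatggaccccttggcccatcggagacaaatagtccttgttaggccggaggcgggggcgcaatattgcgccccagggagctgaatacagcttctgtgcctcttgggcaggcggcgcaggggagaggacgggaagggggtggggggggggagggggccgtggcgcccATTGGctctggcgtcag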

How the data were processed

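Total RNA was extracted with TRIzol, column-purified, amplified and labelled with Cy3, per the labels' protocols. The deposited files of the scanner give spot intensities, not logged, from Agilent Feature Extraction, version 9.5.1.1 per the submitters' processing notes and 10.7.1.1 per the file headers, already background-subtracted. The authors' value table also holds intensities, and all 4 columns have the median 30.4. It was used as an alternative, and the sources used here do not name its normalization. Its log2 values correlated with the quantile-normalized ones at 0.99998 to 0.99999 on each array (Pearson), so these alternatives are not separate checks. Processed signals were put on a log2 scale here, minus the 75th percentile of the array, without control and outlier spots (63 to 134 per array). Probes were named through RefSeq tables of GRCm38.p6 (32994 by accession, 10224 by symbol, 520 by synonym, 1318 by the file's symbol), and 11549 stayed unnamed. A difference needed a probe well above background on each of the arrays compared; where 1 alone passed, it is a bound against the lowest signal well above background. The threshold was 2-fold. The 15 lists hold 167 entries, 1 without a probe; up to 4 genes per list with the largest genotype difference, and any past 2-fold, could be named. The members and lists were chosen with earlier results of these data known. The calls were tested on simulated data. Tools were Python 3.11.15, pandas 2.3.3, R 4.3.3 and limma 3.58.1. The 12 alternatives were scaling on the median or on 7 spike-in probes, quantile normalization, cyclic loess, normexp (offset 50), the authors' values, the mean of all probes, the mean of those well above background (chosen after seeing the data), 2 other background filters, and thresholds of 1.5-fold and 3-fold. The source label calls all samples brain; tissue was taken from the tissue label. Some genes that the naming rule picks are not reported here.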

Additional observations from a re-analysis of the deposited data

Results flagged for a closer look

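Cers2 was flagged because its genotype difference ran opposite ways in the 2 tissues, at 0.15 in brainstem/cerebellum and -0.55 in spinal cord. Each is larger than the technical SD of 0.10, but that SD comes from repeated spots within an array. It does not measure the spread of a difference between arrays. Both values lie inside the central 95% of all genes, -0.58 to 1.04 in brainstem/cerebellum and -1.4 to 2.08 in spinal cord. With scaling on the array's median the brainstem/cerebellum value is -0.02, so the signs are then no longer opposite. The spinal cord difference minus that of brainstem/cerebellum was -0.70. It ranged from -1.25 to -0.37 over the alternatives, and the same quantity from the other Cers2 probe was -0.05. The difference between the tissues was not tested, and the spinal cord arrays also differ in slide, which cannot be told apart from genotype.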

How the results depend on the processing

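In brainstem/cerebellum, 1 gene was lower at 1.5-fold, and the median was -0.29 with scaling on the array's median. In spinal cord, the number at least 2-fold lower was 4 with the spike-in probes, 0 with quantile normalization, 0 with the authors' values, 2 at 1.5-fold and 0 at 3-fold. The spinal cord median was -0.72 with the spike-in probes, -0.16 with the authors' values and 0.0 with the mean of all probes, which takes in 4 probes not well above background. With the mean of the 15 probes that are, an alternative chosen after seeing the data, it was -0.11. For the tissue difference in wild type, 2 genes were at least 2-fold higher with median scaling and 1 at 3-fold, and the median was 0.90 with median scaling, 1.20 with the spike-in probes and 0.83 with the mean of probes. In transgenic mice, 2 were higher with the spike-in probes and 0 at 3-fold, and the median was 0.51 with the spike-in probes, 0.73 with the mean of all probes and 0.76 with that of the 15. The fewer or more genes at other folds follow from the threshold; the cause of the other shifts was not tested. Over all genes in spinal cord, 1431 were higher and 1066 lower, against 809 and 3252 with the spike-in probes. In brainstem/cerebellum it was 444 and 50, against 179 and 15 with normexp and 323 and 100 with median scaling. Of 50 member results, 31 kept their sign in all 10 alternatives that give a value. The 2 other background filters could not change a member, since the probes that stand for the genes were well above background on all 4 arrays. Means over probes could not change the genes with 1 probe. No paired analysis was possible because each group has 1 array. Dim probes limit the precision, with a technical SD of 0.29 between levels of -6 and -4.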

Other observations

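Scd3 and Scd4 are the other members of the stearoyl-CoA desaturase family. The brightest Scd3 probe read -0.40 in wild-type and 0.05 in transgenic brainstem/cerebellum, and -1.05 and -0.32 in wild-type and transgenic spinal cord, with genotype differences of 0.45 and 0.73. Its 3 other probes above background gave -0.25 to 0.10 in brainstem/cerebellum and -1.05 to -0.36 in spinal cord, so the spinal cord sign of Scd3 depends on the probe. Scd4, with 1 probe, read 0.87, 1.67, 1.47 and 1.88 in the same order of arrays, with genotype differences of 0.80 and 0.41. Of the other elongase genes, Elovl4 (very long polyunsaturated chains) was at -0.32 and -0.27 and Elovl6 (palmitate elongation) at -0.06 and -0.49 in brainstem/cerebellum and spinal cord. The 4 Scd genes are close paralogs, and cross-hybridisation between their probes was not tested. A second Scd1 probe was not well above background on any array. Its mm9 coordinates (chr19:44471140-44471199) are on the forward strand, while the Scd1 probe used above is on the reverse strand.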
